A study of Mus musculus and Homo sapiens with 40 samples.

Results

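The regions described here carried H3K27ac in 1 condition of the study, p42-expressing cells exposed to LPS. The 4 deposited H3K27ac peak lists (p42 untreated, p42 with LPS, p30 untreated, p30 with LPS) were merged on the autosomes, X and Y, which gave 183128 regions. A region was chosen when a peak of the p42 LPS list overlapped it and no peak of the other 3 lists did. This held for 6853 regions, 3.74% of all regions and 8.23% of the 83292 regions with a p42 LPS peak. The regions were thus chosen by the peak calls themselves, and presence in 1 list is not a finding.

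All cells were HPC-7, a mouse hematopoietic progenitor line, stably transduced with full-length CEBPA (p42) or its shorter isoform (p30) fused to ERT2. ERT2 is a modified estrogen receptor fragment that lets a protein enter the nucleus when 4-hydroxytamoxifen (4-OHT) binds it. The methods of the study describe 4-OHT treatment for these fusions, in p42 and p30 cells alike; the sample labels do not name it. LPS was given at 100 ng/mL for 2 h, and untreated cells received none. Each H3K27ac list was called on 3 pooled samples, each H3K4me1 list (untreated cells) on 2, and each anti-CEBPA or anti-ER list on 1 library. There is thus no replicate error for any value, no p-value was computed, and intervals in the text are Wilson 95% intervals that cover counting error only. The isoform and the transduced line are the same variable, so their effects cannot be told apart. As a check of the cell type, Spi1 and Lmo2, which encode transcription factors of blood progenitors, had 16 and 15 regions of all 4 lists within 50 kb.

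H3K27ac is laid down by acetyltransferases at active promoters and enhancers, and H3K4me1 marks enhancers that may be active or poised. LPS, a component of Gram-negative bacterial walls, is sensed by Toll-like receptor 4. The receptor drives NF-kB and, through MAP kinases, AP-1 to the regulatory elements of cytokine and chemokine genes, with a secondary interferon response. CEBPA binds DNA as a dimer through its leucine zipper and is known as a factor that opens enhancers of myeloid genes. p30 lacks the N-terminal transactivation part of p42 and keeps the DNA-binding part.

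Sequences of 7 regions illustrate what the group contained. They were read from the + strand of GRCm39 in windows of 300 bases around the H3K27ac summit, or around the anti-CEBPA summit where stated. Capitals mark letters that match a searched motif. The region with the highest fold enrichment of all (7.07) lay 103430 bp upstream of Inhba, which encodes a subunit of activins, inside a non-coding RNA gene. Its window, chr13:16082793-16083092, held none of the searched motifs. The region nearest to Mdm1 (chr10:118008728-118009027) held a C/EBP match, and the region 5678 bp upstream of Chct1 (chr11:85055402-85055701) an NF-kB match. The region in an intron of Ipo9, nearest to Shisa4 (chr1:135329511-135329810), held an AP-1 match, with a GA-rich repeat stretch before it. The windows near Il1b (chr2:129252351-129252650) and Tbc1d15 (chr10:115099129-115099428) are centred on an anti-CEBPA summit of p42 cells. These summits lay 328 bp and 275 bp from the H3K27ac summit. Each window held a C/EBP:AP-1 composite match, which lay outside the H3K27ac region itself. The Cxcl10 window (chr5:92497211-92497510) is shown because it was the sole member in the promoter of a listed gene, and it was chosen after its values were seen.
Inhba: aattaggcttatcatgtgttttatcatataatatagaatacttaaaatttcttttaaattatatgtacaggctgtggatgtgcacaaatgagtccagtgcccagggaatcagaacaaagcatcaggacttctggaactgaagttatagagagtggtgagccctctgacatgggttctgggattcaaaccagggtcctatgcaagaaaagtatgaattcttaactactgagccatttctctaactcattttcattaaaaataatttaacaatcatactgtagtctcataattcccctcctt
Mdm1: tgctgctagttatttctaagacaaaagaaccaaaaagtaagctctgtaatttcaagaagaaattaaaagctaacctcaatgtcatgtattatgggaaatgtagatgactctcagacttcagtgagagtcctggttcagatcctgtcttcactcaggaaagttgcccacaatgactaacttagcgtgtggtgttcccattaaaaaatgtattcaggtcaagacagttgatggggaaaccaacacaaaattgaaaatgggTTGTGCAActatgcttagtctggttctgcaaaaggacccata
Chct1: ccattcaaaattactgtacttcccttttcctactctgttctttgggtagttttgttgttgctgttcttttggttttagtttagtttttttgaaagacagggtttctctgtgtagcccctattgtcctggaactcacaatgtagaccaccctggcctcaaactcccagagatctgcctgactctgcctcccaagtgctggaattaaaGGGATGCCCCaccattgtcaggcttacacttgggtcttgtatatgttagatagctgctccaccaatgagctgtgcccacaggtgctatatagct
Shisa4: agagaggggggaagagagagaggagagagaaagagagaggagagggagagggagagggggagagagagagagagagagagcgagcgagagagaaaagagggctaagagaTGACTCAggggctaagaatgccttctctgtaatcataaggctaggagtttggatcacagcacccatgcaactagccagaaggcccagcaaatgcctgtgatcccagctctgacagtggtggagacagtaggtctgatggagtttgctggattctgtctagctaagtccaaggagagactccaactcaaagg
Il1b: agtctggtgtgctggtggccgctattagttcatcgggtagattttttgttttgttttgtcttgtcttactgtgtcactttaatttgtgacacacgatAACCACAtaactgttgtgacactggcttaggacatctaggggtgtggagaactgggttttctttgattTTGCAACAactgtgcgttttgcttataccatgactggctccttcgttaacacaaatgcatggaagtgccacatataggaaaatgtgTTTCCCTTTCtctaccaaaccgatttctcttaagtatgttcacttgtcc
Tbc1d15: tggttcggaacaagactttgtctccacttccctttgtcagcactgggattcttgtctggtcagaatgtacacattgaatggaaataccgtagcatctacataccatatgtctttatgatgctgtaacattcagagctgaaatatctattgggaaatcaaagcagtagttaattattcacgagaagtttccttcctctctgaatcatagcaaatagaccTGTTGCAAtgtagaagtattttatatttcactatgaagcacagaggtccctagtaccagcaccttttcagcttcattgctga
Cxcl10: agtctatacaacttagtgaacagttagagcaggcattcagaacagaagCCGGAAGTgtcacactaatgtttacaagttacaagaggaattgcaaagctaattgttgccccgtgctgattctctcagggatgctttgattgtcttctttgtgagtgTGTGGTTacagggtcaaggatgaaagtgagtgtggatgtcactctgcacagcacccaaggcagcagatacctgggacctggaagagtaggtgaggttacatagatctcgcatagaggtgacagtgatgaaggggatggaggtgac

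The p42-LPS-only regions were narrow and weak. Each held 1 peak. Their median width was 215 bp (160 to 1305), against 1086 bp for the 76439 regions that p42 LPS shared with any other list. Summit enrichment over the local background, a fold value from MACS2, had a median of 2.77 (1.71 to 7.07), against 3.94 in shared regions. The median −log10 q was 3.28 (1.31 to 25.6), against 7.77. Ranked by −log10 p within the 107141 peaks of the p42 LPS list, the strongest of them stood at 22470. When the list was cut into 10 strength classes of equal size, the strongest 2 classes held 0 of them and the weakest held 2204, or 32.2%. In that weakest class they made up 27.8% of the p42 LPS regions. At q under 1e-05, 1169 of the 6853 (17.1%) had a peak, against 69.0% of shared regions. These values follow from the same calls that chose the regions and are given as a description.

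The best-ranked distal region of all lay in an intron of Kcnab1, a potassium channel subunit gene, and 73083 bp downstream of Ssr3, the nearest protein-coding start. It had a fold of 6.36 and a gap of 318 bp to another H3K27ac peak. The region near Inhba, with a fold of 7.07, was 5726 bp from any other peak. The one nearest to Tmem230, in a non-coding RNA gene, had a fold of 6.74, an AP-1 match and a gap of 29195 bp. These 3 overlapped neither H3K4me1 nor a CEBPA site. The region near Mdm1 (fold 5.35) overlapped H3K4me1 of p30 cells, anti-CEBPA of p30 cells and both anti-ER lists. Zfp354b had a region at its own promoter (fold 4.76, gap 15233 bp) with AP-1 and NF-kB matches. The best-ranked region with an AP-1 match near the summit lay in a coding exon of Efr3b, nearest to Pomc (fold 5.38, gap 297 bp). Its AP-1 letters recurred in tandem copies of a short repeat. The best-ranked region with an NF-kB match lay in a coding exon of Kctd19 (fold 5.84, gap 37390 bp). Even the strongest regions thus ranged from flanks of shared H3K27ac to places far from any other peak.

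**Figure D1:**
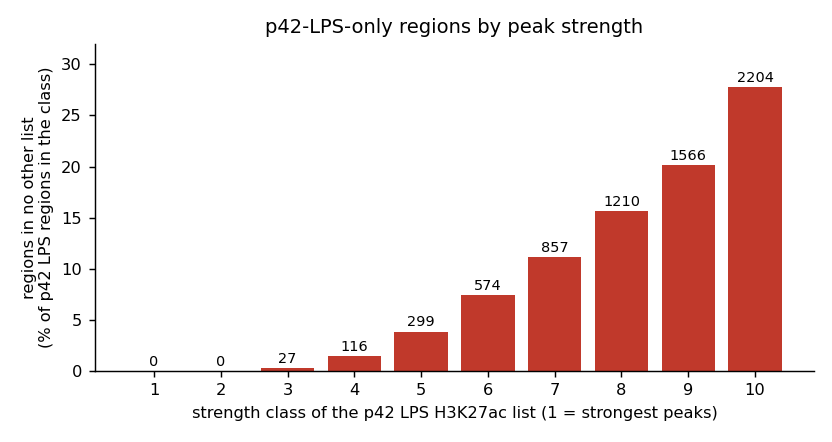
Share of p42 LPS regions found in no other H3K27ac list (y axis, percent) in 10 strength classes of the p42 LPS list (x axis, class 1 strongest). Numbers above the bars count the regions; they climb from 0 in classes 1 and 2 to 2204 (27.8%) in class 10.

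Lists of different length bear on the count. The p42 LPS list was the shortest, with 107141 peaks against 129369, 139210 and 142419 for p42 untreated, p30 untreated and p30 LPS. Regions of 1 list alone numbered 17032, 22941 and 23330 in those lists. With the 107141 strongest peaks of each list, the p42-LPS-only regions numbered 10707, and those of the other lists 13745, 15114 and 14131. All 6853 stayed among the 10707 by construction, since the p42 LPS list lost no peak. Just inside the threshold, the weakest p42-LPS-only region had a −log10 q of 1.31, and 487 had a q between 0.01 and 0.05. Just outside it, 452 shared regions (0.591%) were kept out by nothing stronger than a peak with a q between 0.01 and 0.05 in another list.

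Most of the regions lay close to H3K27ac of another condition. The median gap to the nearest peak of any other list was 472 bp (quartiles 219 and 1307), and 703 regions had a gap under 100 bp. To the p42 untreated list alone the median gap was 903 bp, to p30 untreated 1106 bp and to p30 LPS 1059 bp. Regions with no other peak within 1000 bp numbered 2083 (30.4%, 29.3 to 31.5), and they are called isolated here. The same share was 37.9% for p30 LPS only, 35.2% for p42 untreated only and 40.4% for p30 untreated only. The p42-LPS-only regions, for which the other 3 lists held the most peaks, had the lowest share. At equal list length it was 37.1%.

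Isolated and near regions had the same median fold enrichment (2.77) and nearly the same median rank (82.7% and 82.6% down the list), yet they differed in features that the rule did not use. H3K4me1 of untreated p42 cells overlapped 14.9% of isolated regions and 26.1% of near regions. CEBPA showed the reverse order: the anti-CEBPA list of p42 cells overlapped 6.14% (5.19 to 7.26) of the isolated and 2.85% (2.42 to 3.36) of the near regions. Motifs differed among themselves. AP-1 was found in 13.6% (12.1 to 15.2) of isolated distal regions and 10.3% (9.44 to 11.3) of near ones. The NF-kB motif was found in 6.15% and 4.24%, the C/EBP motif in 5.04% and 3.45%, and the PU.1 motif in 4.73% and 2.42%. The reversed AP-1 letters, used as a control, stood at 10.4% and 9.48%. The intervals of isolated and near regions did not overlap for these 4 motifs, H3K4me1 or anti-CEBPA, and overlapped for the reversed letters. They also overlapped for the other 7 motifs, among them RUNX (11.8% isolated, 12.8% near), the interferon-stimulated response element (6.62% and 6.92%), GATA (25.8% and 24.96%) and the C/EBP:ATF4 composite (1.73% and 1.65%).

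By place, introns took 63.7% of the regions and intergenic sequence 11.7%. Summits in a promoter, from 1000 bp upstream to 100 bp downstream of an annotated start, numbered 655 (9.56%, 8.88 to 10.3), against a background of 13% of all regions. The share was 9.30% for p30 LPS only, 8.86% for p42 untreated only, 10.7% for regions of both LPS lists and no other, and 18.9% for shared regions. Of the 655, 424 lay at transcripts of protein-coding genes and 231 at other transcripts only. The median distance to the nearest protein-coding start was 21608 bp.

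H3K4me1 in untreated cells asks whether the sites were marked before LPS. The p42 list overlapped 1554 of the 6853 regions (22.7%, 21.7 to 23.7), against a background of 36.4%. The p30 list overlapped 1578 (23.03%, 22.0 to 24.0), against 42.8%. Neither list reached 68.9% of the regions (background 51.7%), and 66.2% held neither H3K4me1 nor a CEBPA site (background 49.8%). Regions of both LPS lists only were marked more often, at 30.9% in p42 and 39.2% in p30. Their median width was 379 bp and that of all regions 434 bp, against 215 bp for p42-LPS-only regions. Wider regions have more room for overlap, and the part of width in these differences was not tested. Regions of p42 untreated only had 18.5% in p42, and 3066 of 17032 in p30. The p30 H3K4me1 list was longer, and at equal list length the p42-LPS-only regions were marked in 22.7% by p42 and 19.5% by p30. Regions of p30 LPS only then had 21.4% and 29.9%. Each set of LPS-only regions was thus marked more often by the list of its own line at equal length.

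The share was also below that of shared regions at equal peak strength. In strength classes 2 to 5 of the p42 LPS list (5 classes of equal size, class 1 strongest and without members), H3K4me1 of p42 cells overlapped 29.4%, 26.0%, 24.5% and 20.7% of p42-LPS-only regions. Shared regions of the same classes stood at 69.6%, 51.9%, 41.2% and 34.3%. Their peaks were wider, which gives more room for overlap, and the part of width was not tested. Regions of both LPS lists only stood at 27.1%, 33.0%, 32.4% and 29.3%.

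CEBPA sites were measured in cells without LPS. The anti-CEBPA list of p42 cells overlapped 264 regions (3.85%, 3.42 to 4.33; background 6.74%), and that of p30 cells 136 (1.98%; background 5.41%). The anti-ER list, which sees the fusion protein, overlapped 163 (2.38%; background 6.54%) in p42 and 172 (2.51%; background 8.86%) in p30. At least 1 of the 4 lists reached 344 regions (5.02%; background 10.8%). Every share was below its background, where regions were wider, and the part of width was not tested. Regions of 1 list in p30 cells had still fewer: anti-CEBPA of p42 cells overlapped 0.934% of p30 LPS only and 0.593% of p30 untreated only. Regions of p42 untreated only had 3.24%, and the intervals of both p42 sets lay above those of both p30 sets. The lists of p42 and p30 differed in length. With equal numbers of sites, the p42-LPS-only regions overlapped anti-CEBPA sites in 2.99% (2.61 to 3.42) for p42 and 1.98% (1.68 to 2.34) for p30. For anti-ER these shares were 2.38% and 1.81%.

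**Figure D2:**
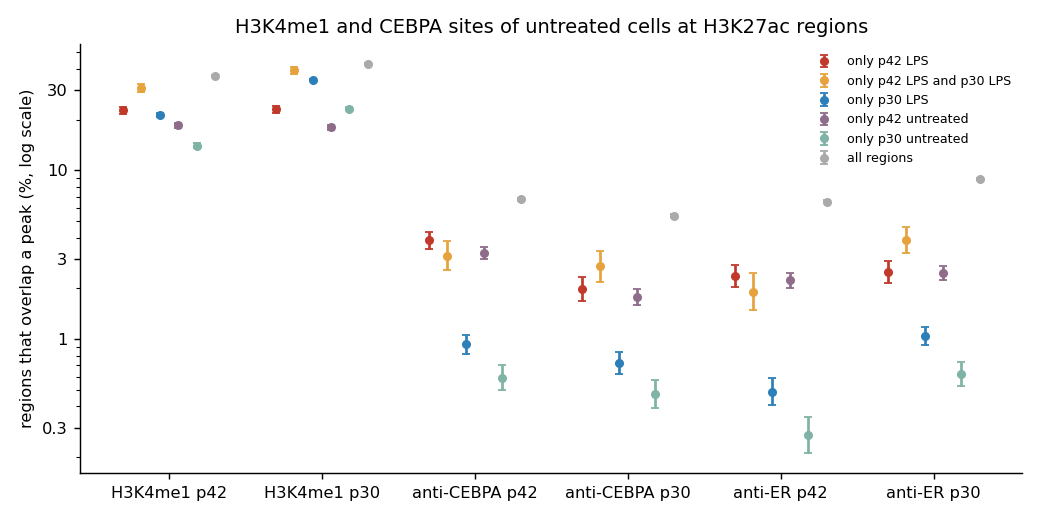
Percent of regions (y axis, log scale) that overlap H3K4me1, anti-CEBPA or anti-ER peaks of cells without LPS (x axis), for 5 classes of H3K27ac regions and all regions, with Wilson 95% intervals. For anti-CEBPA in p42 the p42-LPS-only regions stand at 3.85% and the p30-LPS-only regions at 0.934%, all regions at 6.74%.

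The stronger the p42-LPS-only peak, the more often it sat on a CEBPA site. In strength classes 2 to 5 the anti-CEBPA sites of p42 cells overlapped 22.4% (32 of 143), 8.59%, 3.43% and 2.28%. Shared regions had 16.4%, 7.001%, 4.29% and 2.87%, and regions of both LPS lists only 10.0%, 5.01%, 2.28% and 1.42%. The anti-CEBPA sites of p42 cells had a median fold enrichment of 9.12 in p42-LPS-only regions and 8.16 in other regions. The other lists showed no such difference. These medians were 8.01 and 7.92 for anti-CEBPA of p30 cells, 7.55 and 7.55 for anti-ER of p42 cells, and 7.13 and 7.35 for anti-ER of p30 cells. Regions with an anti-CEBPA site in each line numbered 106 (1.55%; background 4.4%), those with one in p42 alone 158 (2.31%; background 2.35%) and those with one in p30 alone 30 (0.438%; background 1.01%). The p42-alone share was thus at its background, and the p42 list was the longer, with 47517 sites against 31851. The C/EBP motif was found in 20.9% (16.2 to 26.6) of the 234 distal regions with an anti-CEBPA site of p42 cells, and in 3.27% of those without.

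A site with both antibodies in p42 cells and none in p30 was found in 27 regions (0.394%, 0.271 to 0.573; background 0.307%). The 3 best-ranked of these lay in the untranslated part of Klf11, upstream of Sgip1 and upstream of Tbc1d15. Their anti-CEBPA summits lay 226 bp, 27 bp and 275 bp from the H3K27ac summits. For Klf11 and Tbc1d15 the anti-CEBPA and anti-ER summits fell outside the region, which only the edge of each site overlapped. Klf11 encodes a Krüppel-like transcription repressor; its region (chr12:24712444-24712667) had an H3K27ac fold of 5.53, an anti-CEBPA fold of 11.1 and an anti-ER fold of 6.72. The region 59145 bp upstream of Sgip1 (chr4:102539112-102539478) had an anti-CEBPA fold of 9.68 and an anti-ER fold of 6.24. The region 11596 bp upstream of Tbc1d15, which encodes a GTPase-activating protein for Rab7, had 9.36 and 8.64. A contrast is the promoter region of a non-coding RNA nearest to Ccdc28a, with sites in all 4 lists and an anti-CEBPA fold of 37.5 in p42 and 17.2 in p30.

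Motifs were searched in 500 bp around the summit of the 6198 distal regions, on both strands. AP-1 (TGACTCA), the site of Fos and Jun dimers, was found in 11.3% (10.55 to 12.12; background 10.3%), and its letters reversed (ACTCAGT) in 9.75% (background 9.34%). The NF-kB motif was found in 299 regions (4.82%, 4.32 to 5.39), below its background of 5.31%. Regions of p42 untreated only had the NF-kB motif in 3.77% (3.48 to 4.08) and AP-1 in 8.92% (8.48 to 9.37). Regions of p30 untreated only had 4.39% (4.12 to 4.67) and 8.51% (8.14 to 8.89). Of these intervals, only that of NF-kB in p30 untreated only overlapped the interval of the p42-LPS-only regions. The others lay below it. The C/EBP motif (TTGCGCAA, TTGCACAA, TTGCATAA or TTGCGTAA) was found in 3.94% (background 2.93%), the C/EBP:ATF4 composite (TGATGCAA) in 1.68% (background 1.24%) and the C/EBP:AP-1 composite (TGTTGCAA) in 1.74% (background 1.32%). Regions of p42 untreated only had the C/EBP motif in 3.79%, and those of p30 untreated only in 2.29%. Of these 2 sets, only p42 untreated only had an interval that overlapped that of the p42-LPS-only regions. The C/EBP motif was thus as frequent, within counting error, in regions of p42 cells without LPS. PU.1 (GAGGAAGT) was found in 3.13% of p42-LPS-only regions, against a background of 5.48%. The RUNX motif (AACCACA) stood at 12.5% (background 13%). The letters AGATAA, a site of factors such as Gata2, stood at 25.2% (background 22.6%), and the interferon-stimulated response element at 6.82% (background 6.7%). CRE (TGACGTCA) and ETS (CCGGAAGT) were rare, at 0.355% (background 0.374%) and 0.226% (background 0.554%). Both strands of palindromic letters count once.

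The regions of both LPS lists and no other (3034 regions, 2708 distal) make the closest comparison, since they share the LPS peak of p42 cells and the absence in both untreated lists. There the NF-kB motif was found in 255 (9.42%, 8.37 to 10.6) and AP-1 in 13.9% (12.7 to 15.3), both above the p42-LPS-only regions. The C/EBP motif stood lower, at 2.84%. In regions of p30 LPS only, NF-kB was found in 6.46%, AP-1 in 9.79% and C/EBP in 2.14%. The NF-kB motif was thus more frequent in LPS regions that both lines had in common than in those of p42 alone, with intervals that did not overlap.

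This order held at equal peak strength. In classes 2 to 5 the NF-kB motif was found in 4.62%, 5.99%, 4.30% and 4.85% of p42-LPS-only regions, and in 19.2%, 10.9%, 8.62% and 7.36% of regions of both LPS lists only. Shared regions stood between 5.47% and 5.88%. The intervals of the p42-LPS-only regions and the regions of both LPS lists did not overlap in any of the 4 classes. AP-1 was found in 13.8%, 13.1%, 11.9% and 10.46% of p42-LPS-only regions and 20.2%, 15.6%, 13.2% and 12.3% of the other set. For the C/EBP motif the order was reversed, with 9.23%, 5.36%, 3.81% and 3.48% of p42-LPS-only regions against 3.11%, 3.30%, 2.68% and 2.61%. For both of these motifs the intervals of the 2 sets overlapped in every class. GC content, which bears on a GC-rich motif, had a median of 45.2% in p42-LPS-only regions and 46.4% in the set of both LPS lists. Within GC classes (under 40%, 40 to 45%, 45 to 50%, 50 to 55% and above) the NF-kB motif was found in 2.49%, 3.41%, 5.65%, 6.78% and 12.05% of the first set. The second set had 4.35%, 7.24%, 9.30%, 12.9% and 18.7%, higher in each class.

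**Figure D3:**
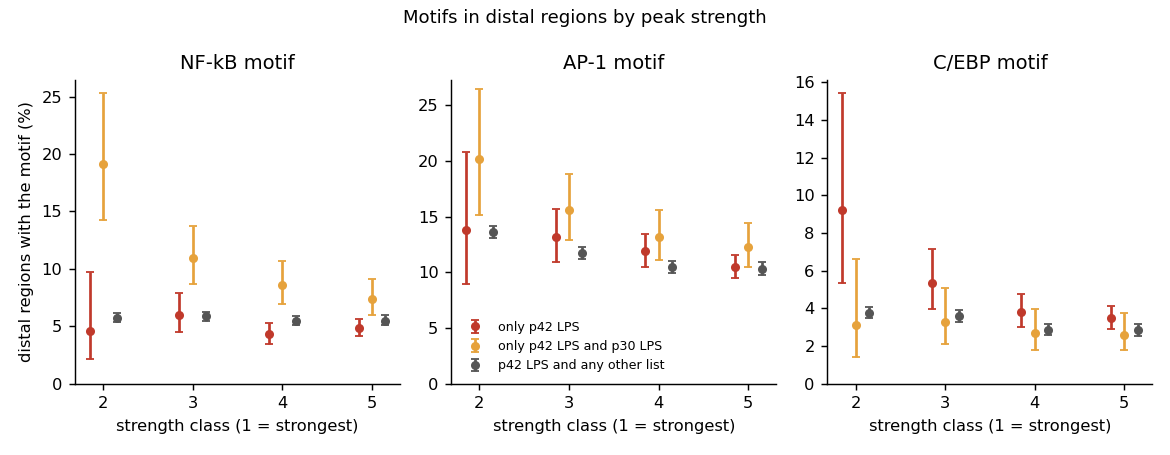
Percent of distal regions with an NF-kB, AP-1 or C/EBP motif within 500 bp around the summit (y axis) in strength classes 2 to 5 of the p42 LPS list (x axis), with Wilson 95% intervals. NF-kB stands at 4.30% to 5.99% in p42-LPS-only regions and at 7.36% to 19.2% in regions of both LPS lists only.

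Genes near the regions were read from 9 lists, counting a summit within 50 kb of the gene start. Of 98 inflammatory genes (26 chemokines, 27 cytokines, 45 Toll-like receptor and NF-kB genes), 52 had a p42-LPS-only region nearby (53.1%, 43.3 to 62.6), against a background of 33% of all protein-coding genes. The 3 lists had 12, 16 and 24 such genes. For p30 LPS only the share was 77.6% (background 56.6%), for p42 untreated only 50.0% (background 49.5%) and for p30 untreated only 59.2% (background 53.5%). Ribosomal protein genes, taken as a comparison, had 19 of 34 (55.9%), so the share of inflammatory genes did not stand above theirs. Other lists had 11 of 22 (AP-1 family), 10 of 13 (C/EBP family and Tribbles), 11 of 31 (interferon-stimulated genes), 13 of 31 (immediate early genes and MAPK phosphatases) and 12 of 30 (hematopoietic transcription factors).

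Counting all regions, the mean was 21.2 near an inflammatory gene, 23.7 near a ribosomal protein gene and 15.5 near any protein-coding gene. Of the lists, only the chemokines lay below the value of any protein-coding gene, at 14.7. Regions of 1 untreated list alone were fewer near inflammatory genes. Their means were 1.17 (p42) and 1.43 (p30), against 1.48 and 1.77 near any protein-coding gene. Neighbouring genes moreover share regions. With each region counted once, 94 of the 1031 p42 LPS regions near inflammatory genes were p42-LPS-only (9.12%, 7.51 to 11.03), against 7.90% near all protein-coding genes. That interval includes the value for all genes. Regions of both LPS lists only made up 70 of the same 1031 (6.79%, 5.41 to 8.49), against 3.51%, and p30-LPS-only regions 24.4% (22.2 to 26.7) of p30 LPS regions there, against 18.3%. Regions of p42 untreated only made up 9.76% (8.12 to 11.7), against 15.5%. Per region, therefore, inflammatory genes stood out for LPS regions of both lines and of p30 alone, but not beyond counting error for those of p42 alone. Near genes of the C/EBP family and Tribbles, 16 of 142 p42 LPS regions were p42-LPS-only (11.3%, 7.06 to 17.5), and 1 was of both LPS lists only (0.704%).

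**Figure D4:**
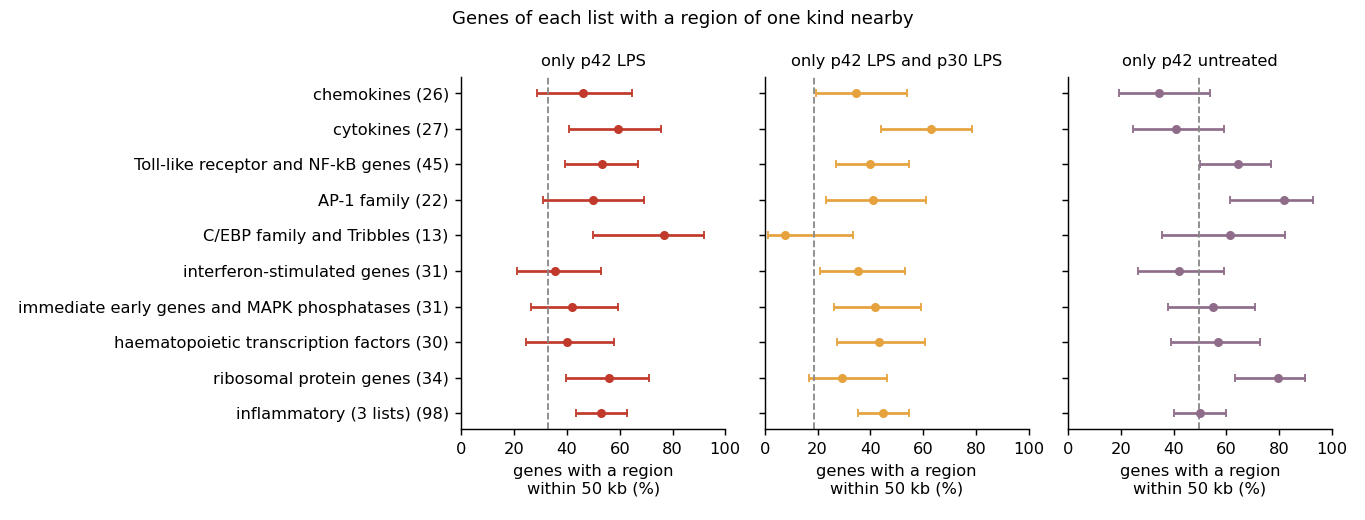
Percent of genes of each list (y axis, number of genes in brackets) with a region of the named class within 50 kb of the start (x axis), with Wilson 95% intervals. Dashed lines give all protein-coding genes (33%, 18.5% and 49.5%). The inflammatory genes stand at 53.1%, 44.9% and 50.0%.

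Single loci differed widely. Cxcl10 encodes a chemokine that attracts T cells and is induced by interferons and NF-kB. All 13 regions within 50 kb of its start had a p42 LPS peak, while 8 had a p30 LPS peak, 8 a p42 untreated peak and 4 a p30 untreated peak. Of the 13, 4 were p42-LPS-only and 0 p30-LPS-only. The region in its promoter, which also lies within Art3 (chr5:92496982-92497434, summit 613 bp upstream), had a fold of 3.28 and a gap of 3541 bp to any other H3K27ac peak. Another lay 1043 bp upstream with a fold of 2.60, and one 28330 bp upstream held the NF-kB motif. H3K4me1 of untreated p42 cells overlapped 3 of the 4, and that of p30 cells 0. The same regions are counted for the neighbouring chemokine genes Cxcl9 and Cxcl11.

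Among cytokines, Il6, Il10, Il1b and Il1a had most. Il6 encodes a cytokine of the acute-phase response. Of 25 regions near it, 4 were p42-LPS-only, 6 p30-LPS-only and 1 of both LPS lists only. The best of the 4 lay in an intron, 2957 bp downstream of the start, with a fold of 3.07. Il10, an anti-inflammatory cytokine gene, had 4 p42-LPS-only regions of 16, of which 3 lay between 22519 and 27656 bp downstream. Il1b, which encodes interleukin 1 beta, had 3 of 14, and 12 of the 14 had a p42 LPS peak against 7 with a p30 LPS peak. Its strongest, 39770 bp upstream (chr2:129252640-129253282, fold 5.53), was the best-ranked promoter region of all, at the start of an unnamed non-coding RNA. It overlapped an anti-CEBPA site of p42 cells with a fold of 10.7, whose summit lay 328 bp from the H3K27ac summit. It overlapped no anti-CEBPA site of p30 cells and no anti-ER site of either line. Il1a, beside it, had 3 of 17, the best in an intron with a fold of 4.46 and a gap of 3186 bp. Each of these loci held p42-LPS-only regions amid regions that other conditions had too.

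In the other lists, Irak3, which encodes a brake on Toll-like receptor signalling, had 6 of 26, and 4 of the 6 lay between 1595 and 6564 bp downstream of its start. The strongest (chr10:120036327-120036515) had a fold of 4.76. Rsad2 encodes viperin, an antiviral protein, and had 7 of 29; the adjacent Cmpk2, a mitochondrial nucleotide kinase gene induced by interferon, shared 6 of them. The strongest (chr12:26516854-26517213) had a fold of 5.90, a C/EBP match and H3K4me1 in both lines. Gadd45a, a stress-response gene, had 4 of 34, and both of its strongest (folds 4.92 and 4.15) held the C/EBP motif. Cebpa had 2 of 31. The one 14011 bp downstream held the C/EBP motif and overlapped anti-CEBPA of p42 cells and both anti-ER lists. Cebpe, a gene of granulocyte maturation, had 3 of 34 beside 9 of p42 untreated only. Ccl5 gives the opposite picture: of 55 regions near this chemokine gene, 2 were p42-LPS-only, 22 p30-LPS-only and 7 of both LPS lists only.

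The genes most often nearest to a p42-LPS-only region, at any distance, were Zeb2 and Tiam1 with 19 regions each, Atp8b4 and Ikzf2 with 18 each and Mgat5 with 17. Zeb2 and Ikzf2 encode transcription factors of blood cells, and Tiam1 an activator of Rac. Another such region lay within 10 kb for 2333 of the 6853 (34.0%). Clusters of at least 3 numbered 243 and those of at least 5 numbered 26. No matching counts of nearest genes or clusters are given for all regions or the other sets. Clustering is therefore not shown to be particular to the p42-LPS-only regions. The largest clusters held 7 regions each, near Atp8b4, Mgat5, Rev1, Ugt1a5, and Acod1 with Kctd12. Acod1, a gene outside the lists and named after its values were seen, encodes the enzyme that makes itaconate in activated macrophages.

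The regions were not spread evenly over chromosomes. Chromosome 1 held 940 of them, 13.7% of all, and there they made up 11.97% of 7854 p42 LPS regions. Chromosomes 16 and 6 followed with 10.3% and 9.55%, and chromosome 4 was lowest among the autosomes with 6.41%. Of the 70 clusters of at least 4, 21 were on chromosome 1 and 7 each on chromosomes 6 and 16. Regions of p42 untreated only showed another unevenness, with 11.3% of their list on chromosome 1 and 8.70% on chromosome 17, where the other autosomes stood between 15.1% and 17.95%. Regions of p30 LPS only made up 18.9% on chromosome 1 and 15.9%, the lowest of the autosomes, on chromosome 17. The lists give neither read depth nor copy number by chromosome, so these shares could not be set against them.

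**Figure D5:**
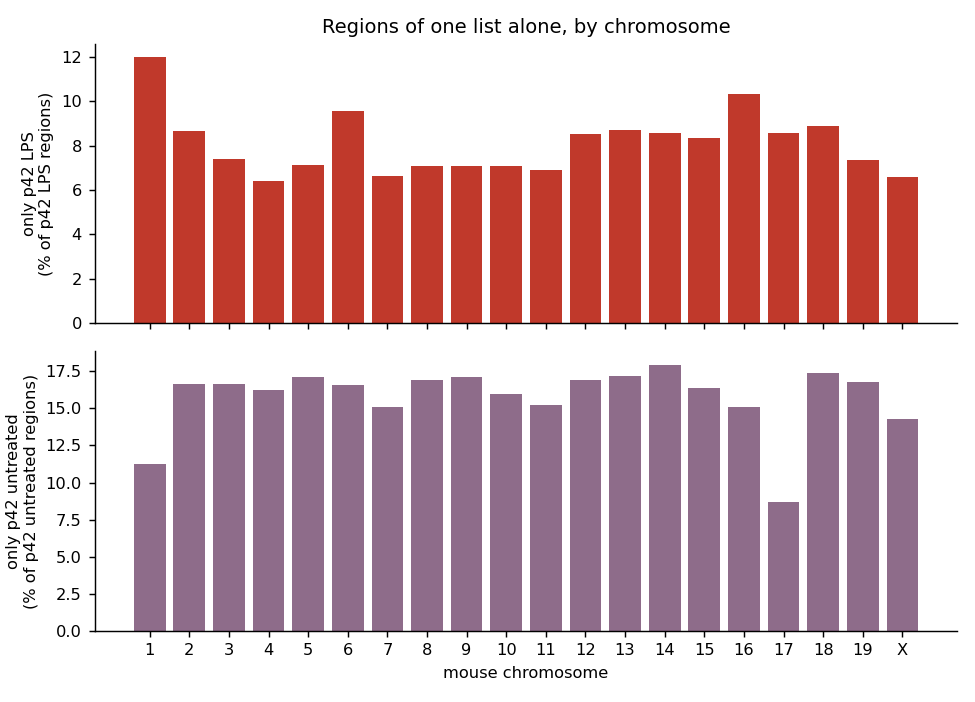
Regions of 1 list alone as a percent of the regions of that list on each autosome and X (x axis), for p42 LPS (upper panel) and p42 untreated (lower panel). Chromosome 1 is highest for p42 LPS (11.97%), and chromosomes 17 and 1 are the lowest of those drawn for p42 untreated (8.70% and 11.3%).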

How the data were processed

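Peak lists of ChIP-seq in HPC-7 cells were used, grouped by the sample labels. According to the methods, the authors trimmed reads (Trim Galore 0.6.6), aligned them to mm39 with Bowtie2, excluded Picard duplicates and called narrow peaks with MACS2 against input, on pooled replicates for the histone marks. The deposited values are a fold enrichment over the local background (a ratio) and the −log10 of a p-value and of a q-value, and the deposited lists reach a q-value of 0.05. Read depth is not known from the lists.

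Overlapping or touching peaks were merged, and a region was present in a list with which it shared at least 1 bp. Places were taken from the GENCODE annotation of GRCm39. Motif windows were 500 bp around the strongest summit outside promoters, and gene distances 50 kb. No random background was drawn. The named genes are the 5 best-ranked distal and 3 best-ranked promoter regions, the genes of each list with a region in the promoter and up to 4 with most regions, the 5 genes nearest to most regions, the 3 best-ranked with p42 sites of both antibodies alone, and the 2 best-ranked with each of AP-1 and NF-kB within 150 bp of the summit. The members, gene lists and motifs were chosen with earlier results of these data known. Of the 5 best-ranked distal regions, 1 is not reported here. One gene symbol of the interferon list (31 of 32 found) did not match. In simulated lists, all 1356 planted regions among 20000 were recovered. Alternatives are given in the closing section. Those with touching peaks kept apart or with equally long H3K4me1, anti-CEBPA and anti-ER lists were added after seeing the data. ATF4 in KO-52 cells was not used here. Computation used Python 3.11.15, numpy 2.4.6, pandas 2.3.3 and matplotlib 3.10.9.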

Additional observations from a re-analysis of the deposited data

How the results depend on the processing

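No paired analysis was possible because the H3K27ac lists were called on pooled replicates, which also prevents leaving out a sample. Of 58 recomputed values, 23 stayed within the main interval or within 1.5 times the main count and 35 moved. Counts and shares have no direction, so none could turn, and the backgrounds were not recomputed. With q under 0.01 in all lists, and with touching peaks kept apart, no value moved. The causes of the moves were not tested, beyond the fewer or more regions that each setting leaves.

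The number of p42-LPS-only regions was 1169 with presence at q under 1e-05, 10707 with all lists cut to the same length, 3319 with no other peak within 500 bp, and 33010 when absence meant no peak with a reciprocal overlap of 50%. In the same order of settings, where they moved, the promoter share was 10.4% (q under 1e-05), 8.35% (500 bp) and 11.3% (reciprocal), and 33.2% with promoters within 2500 bp. The H3K4me1 share in p42 was 25.9%, 16.8% and 40.5%, and 17.0% with the summit inside the H3K4me1 peak. The anti-CEBPA share in p42 was 9.84% (q under 1e-05), 3.36% (same number), 4.82% (500 bp) and 4.34% (reciprocal), and 2.60% for site summits within 100 bp. The first of these exceeds the main background of 6.74%. That background was not recomputed at q under 1e-05, so no order between the share and its background follows there. The AP-1 share was 13.6% (q under 1e-05) and 12.4% (500 bp), with 4.39% in windows of 200 bp and 20.8% in windows of 1000 bp. The NF-kB share was 5.62% (500 bp), with 2.11% and 9.003% in those windows. The inflammatory gene share was 18.4% (q under 1e-05), 64.3% (same number), 36.7% (500 bp) and 84.7% (reciprocal), with 22.4% at a distance of 10 kb and 76.5% at 100 kb. The isolated share was 33.9% (q under 1e-05), 37.1% (same number) and 62.8% (500 bp), with 77.5% at a distance of 200 bp and 9.12% at 5000 bp.

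The unknown depth limits every count of regions, since absence from a list means only that no peak was called there.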
